A study of Mus musculus with 18 samples.

Results

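A set of 31 genes that mark T cells, B cells and cytotoxic lymphocytes, together with the mucosal addressin Madcam1, was followed through 3 mouse fat depots. Of the 31, 29 had a probe set of their own and were measured, among 18193 genes that had one; the brightest probe set over all 18 arrays stood for each gene. The kinase Lck and the transcription factor Tcf7 had no probe set named for them in the annotation used and were not analysed here. The list falls into 16 T cell genes (14 measured), 9 B cell genes, 3 cytotoxic genes, the cytokine Ltb, the adaptor Samsn1 and Madcam1.

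RNA from interscapular BAT, inguinal sWAT and mesenteric mWAT of female Sv129 mice, 10 weeks old, was hybridised to arrays after 10 days at 6 or 28°C, with 3 arrays for each depot and temperature. No allele or agent was applied, so the groups were mWAT, sWAT and BAT at 6°C and the same depots at 28°C, and the depots held no transgene. Depot and temperature were taken from the sample titles, since other fields of the labels contradict them. The labels do not tie arrays to mice, nor say whether the 3 depots came from the same animals; p-values measure the spread between these arrays. The tissues carried their labels: the adipocyte list averaged 12.31 to 13.23 log2 units over the arrays, the brown adipocyte list averaged 11.48 to 12.71 in BAT, and the mesothelial list was high in mWAT only, at 10.07 to 11.55 against at most 6.91 elsewhere. Array medians ranged from 6.97 to 7.2 on the log2 scale. The replicate numbers below only name arrays.

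Lymphocytes recognise antigen through clonal receptors. In T cells the receptor signals through the CD3 chains, with CD4 or CD8 as coreceptor, and in B cells through the CD79 pair. Naive T and B cells circulate between blood and lymph nodes, which they enter through high endothelial venules, while both the inguinal and the mesenteric fat of the mouse surround lymph nodes and mesenteric fat also borders the lymphoid tissue of the gut.

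The promoters of 3 members are shown because they held the rarest of the motifs searched, and they were chosen after the search. Madcam1 is the adhesion ligand of mucosal venules, Ltb encodes lymphotoxin beta, which many but not all lymph nodes need in order to form, and Cd22 is a B cell inhibitory receptor. The 250 bases before a transcript start of each gene, from RefSeq on GRCm38.p6, are given 5′ to 3′ on the gene's strand, with capitals on a 10-base motif match. These are the NF-κB motif (GGGA, any base, then TTTCC) in Madcam1 (chr10:79664309-79664558, plus strand) and Ltb (chr17:35194257-35194506, plus strand), and the early B cell factor motif (TCCC, any 2 bases, then GGGA) in Cd22 (chr7:30879029-30879278, minus strand). The starts used for Madcam1 and Ltb are the outer ends of the annotated genes, whereas that of Cd22 lies 1314 bases inside the gene, so that its window is within the gene and not before its outer end.
Madcam1: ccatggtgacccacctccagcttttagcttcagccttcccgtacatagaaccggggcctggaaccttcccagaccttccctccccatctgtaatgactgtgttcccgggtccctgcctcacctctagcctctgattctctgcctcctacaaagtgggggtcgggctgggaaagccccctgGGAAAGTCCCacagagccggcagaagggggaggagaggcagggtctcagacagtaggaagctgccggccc
Ltb: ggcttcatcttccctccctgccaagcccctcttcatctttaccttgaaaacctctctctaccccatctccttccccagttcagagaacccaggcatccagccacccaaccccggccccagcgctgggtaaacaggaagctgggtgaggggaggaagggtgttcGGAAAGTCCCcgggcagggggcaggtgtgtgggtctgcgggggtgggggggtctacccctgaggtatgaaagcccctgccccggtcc
Cd22: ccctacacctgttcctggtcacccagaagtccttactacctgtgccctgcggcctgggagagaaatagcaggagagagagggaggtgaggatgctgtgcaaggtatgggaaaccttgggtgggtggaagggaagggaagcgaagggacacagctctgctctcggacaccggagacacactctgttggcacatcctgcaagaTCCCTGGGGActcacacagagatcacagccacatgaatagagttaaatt
In all, 11 motifs were searched, each on both strands and with overlaps between motifs allowed, in windows of 300 bases (250 before and 50 after the start). The 19 members had 23 windows, as Fcer2a and Zap70 have several starts, and 12 of the 23 starts lie inside the annotated gene. The NF-κB motif was in the windows of 0.466% of 27025 genes and in 2 of the 19 measured members with a window, Ltb and Madcam1, where it read GGAAAGTCCC in each. The early B cell factor motif was in 1.06% of the genes and in 1 member. Of the other motifs searched, the octamer ATTTGCAT was in 1.97% of the genes and no member, and the ETS motif AGGAAGT was in 10.7% of the genes and 6 members, Cd3d, Cd3e, Cd5, Il7r, Cd79a and Samsn1. A shorter NF-κB form (GGG, any 2 bases, then TTCC) was in 6.58% of the genes and 2 members, Cd3g and Madcam1. The GABP type of ETS motif, CGGAAGT, was in 7.2% and no member, the RUNX motif TGTGGTT in 6.09% and 2 members, Il7r and Gzma, and the GATA motif AGATAA in 12.7% and 1 member, Cd3g. The Ikaros motif TGGGAA was in 28.3% of the genes and 10 members, the E box CAGGTG in 22.6% and 11 members, and the TATA box TATAAA in 15.7% and 1 member, Fcer2a. These are matches of letters, given as a description with no test.

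The 29 genes showed 3 kinds of array. All 6 BAT arrays were low, all 6 sWAT arrays were high, and mWAT was split: replicates 1 and 2 at either temperature were high, whereas replicate 3 at either temperature was close to BAT. Averaged over the 14 T cell genes, the log2 intensity was 10.82 and 10.75 in mWAT at 6°C and 10.67 and 10.79 in mWAT at 28°C on those 4 arrays, but 6.37 and 6.39 on the replicate 3 arrays. The same mean was 8.99 to 9.96 in sWAT at 6°C, 9.18 to 10.86 in sWAT at 28°C, 5.78 to 6.03 in BAT at 6°C and 5.65 to 6.22 in BAT at 28°C. Because the tissue was profiled whole, fewer cells of a type and less RNA per cell cannot be told apart.

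**Figure D1:**
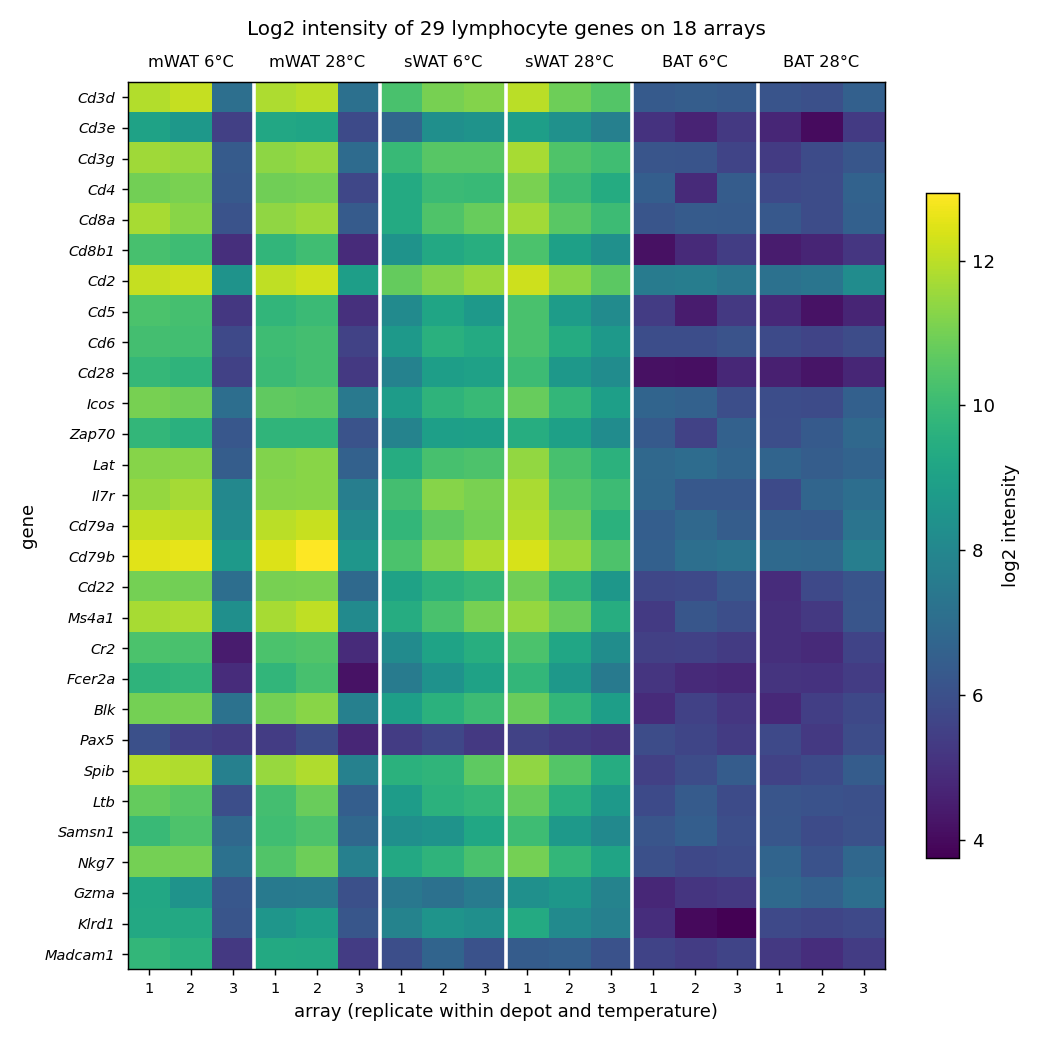
Log2 intensity (colour) of the 29 measured genes (rows) on the 18 arrays (columns, grouped by depot and temperature). Replicate 3 of mWAT at 6 and at 28°C is dark across the T cell rows, as are the 6 BAT arrays, while the other 4 mWAT arrays and the 6 sWAT arrays are light.

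In sWAT the lymphocyte genes were higher than in BAT at both temperatures. At 6°C, 10 of the 29 members were called higher (limma, adjusted p under 0.01) and none lower, where 10.3% of all 45037 probe sets were called higher. At 28°C, 14 were called higher and none lower, against a background of 9.66%. The 3 sWAT arrays lay above the 3 BAT arrays of that temperature for 28 of the 29 members at 6°C and for 28 at 28°C, while among all probe sets the shares were 23.1% at 6°C and 22.9% at 28°C. The median difference of the members was 3.66 at 6°C and 4.07 at 28°C (log2), where the median gene differed by -0.09 at 6°C and -0.08 at 28°C.

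Cd3d, a signalling chain of the T cell receptor complex, was at 11.996, 10.89 and 10.46 log2 units in sWAT at 28°C, against 6.14, 5.98 and 6.56 in BAT at 28°C. No sWAT array came near the BAT range. The difference was 4.89 ± 1.23 (SE; adjusted p = 0.00632, limma), a 29.6-fold change. Its partners Cd3e and Cd3g were also called at 28°C, by 3.65 ± 0.93 and 4.97 ± 1.24, but none of the 3 was called at 6°C, where Cd3d had a difference of 4.47 ± 1.23 with adjusted p = 0.0105. The coreceptors Cd4, Cd8a and Cd8b1 differed by 4.07 to 4.53 at 28°C without reaching the threshold, with adjusted p between 0.0168 and 0.0243.

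Among the adhesion and costimulation genes, Cd2, a receptor for the CD48 ligand on other leukocytes, was called in sWAT at both temperatures, by 3.66 ± 0.93 at 6°C and 3.84 ± 0.93 at 28°C. Cd28 and Icos, the related costimulatory receptors, were called at 28°C only, and the difference between the temperatures did not pass the test for either gene. Cd5 and Cd6, scavenger receptor family members that tune T cell signalling, and Zap70 and Lat, which relay the signal of the receptor, were not called. Il7r, the receptor for the survival cytokine interleukin 7, was at 10.18, 11.27 and 11.08 in sWAT at 6°C and 11.76, 10.52 and 10.03 in sWAT at 28°C. In BAT it was at 6.83, 6.29 and 6.26 at 6°C and 5.82, 6.73 and 7.07 at 28°C. It was called at both temperatures, by 4.38 ± 0.97 at 6°C (adjusted p = 0.00273) and 4.23 ± 0.97 at 28°C (adjusted p = 0.00349).

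Of the 9 B cell genes, 5 were called higher in sWAT than in BAT at 6°C (10.3% of all probe sets) and 6 at 28°C (9.66%). Ms4a1, the B cell surface protein CD20, was at 11.47, 10.83 and 9.45 in sWAT at 28°C, against 4.98, 5.28 and 6.16 in BAT at 28°C. The difference of 5.11 ± 1.004 (adjusted p = 0.00115) was the largest of any member in that contrast. Cd79a and Cd79b, the signalling chains of the B cell receptor, the kinase Blk and the transcription factor Spib were called at both temperatures, whereas Cd22 was called at 28°C only. Cr2 and Fcer2a, a complement receptor and the low-affinity IgE receptor of mature follicular B cells, differed from BAT by 4.10 ± 1.46 and 3.48 ± 1.39 at 28°C and were not called. Pax5, the B lineage transcription factor, stood apart from the rest on its brightest probe set, at 5.15 to 5.69 in sWAT and 5.28 to 5.89 in BAT. Its other probe set also failed to part sWAT from BAT. That other probe set was at 4.14 and 4.77 on the replicate 3 arrays of mWAT, against 6.01 to 6.23 on the other 4 mWAT arrays. Over the members with several probe sets, 14 of the 15 further probe sets put all sWAT arrays above all BAT arrays, Pax5 being the exception. Nkg7, a granule protein of cytotoxic cells, was called in sWAT at both temperatures, by 3.92 ± 0.92 at 6°C and 3.47 ± 0.92 at 28°C, and the other 2 cytotoxic genes, Gzma and Klrd1, were called at 6°C only.

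**Figure D2:**
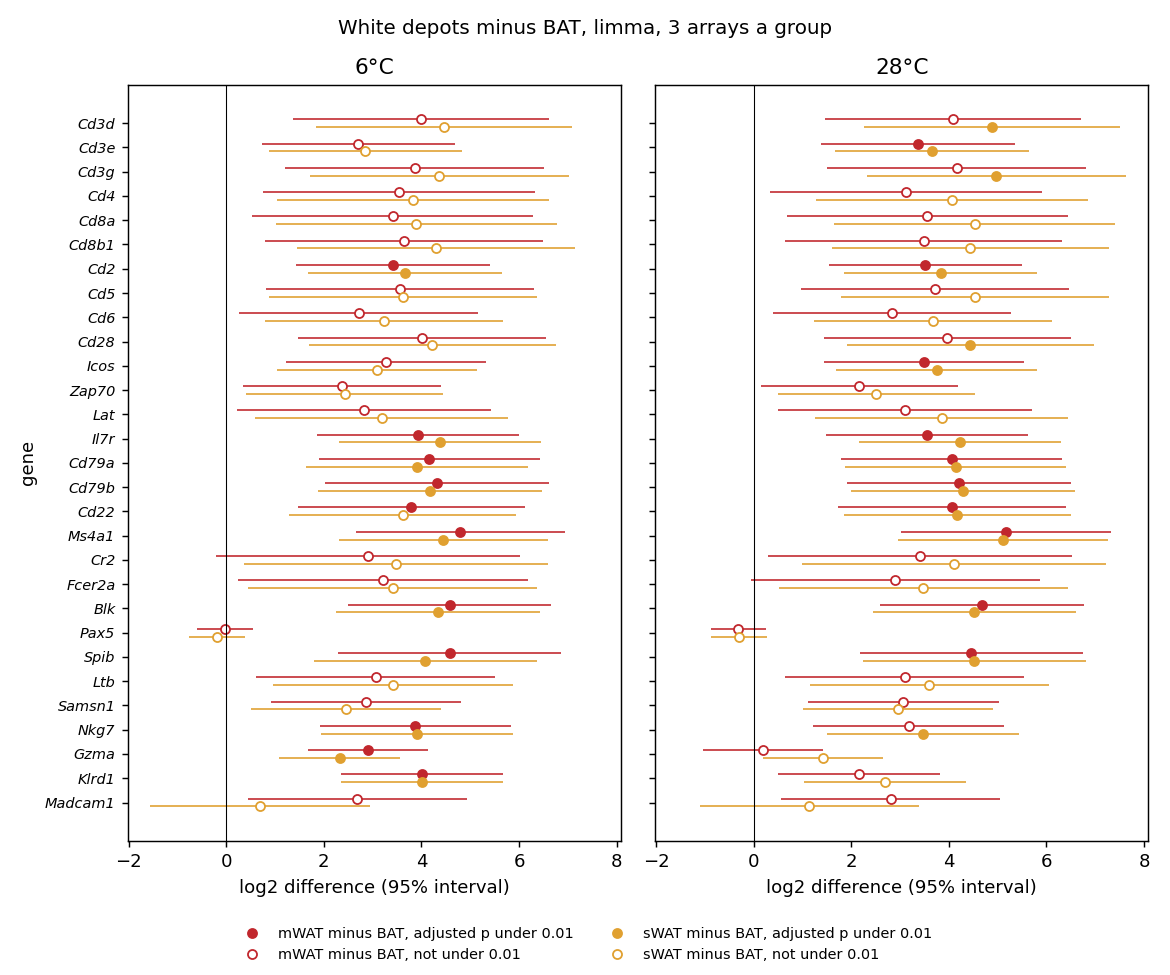
Difference in log2 intensity between each white depot and BAT (x axis, with the 95% interval from limma) for each gene (y axis) at 6°C (left) and 28°C (right), 3 arrays a group. Most intervals lie right of 0, Pax5 sits at 0, and filled points mark genes with an adjusted p under 0.01.

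The sWAT arrays differed among themselves. Replicate 1 at 28°C was the highest sWAT array for 26 of the 29 members, and the lowest was replicate 3 at 28°C for 14 members and replicate 1 at 6°C for 14. For Cd3d these 3 arrays read 11.996, 10.46 and 10.28. At 6°C against 28°C in sWAT, 27 of the 29 members had a change below 0, with a median of -0.31, and none was called, against 0.48% of all probe sets; none reached an unadjusted p of 0.05 either. Since the members of a set move together from array to array, these 27 are not separate observations. The 95% intervals were wide, with a median half-width of 2.28, so that changes under about that size would mostly not reach an unadjusted p of 0.05. The threshold for a call was stricter, so larger changes could also go uncalled.

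In mWAT the groups held both high and low arrays. At 6°C, 11 members were called higher in mWAT than in BAT, against 14.8% of all probe sets, and at 28°C 10 were called, against 11.4%. These calls rest on a spread shared with the other groups: fitted on only the 2 groups compared, 1 member was called at 6°C, Ms4a1, and 0 at 28°C. The calls at both temperatures were Cd2, Il7r and 6 B cell genes, joined by the 3 cytotoxic genes at 6°C and by Cd3e and Icos at 28°C. The mWAT arrays lay wholly above the BAT arrays for 17 members at 6°C and for 19 at 28°C, where 22.2% and 21% of all probe sets did so. The members that were called at both temperatures and in both white depots were Blk, Cd2, Cd79a, Cd79b, Il7r, Ms4a1 and Spib, 7 in all, while 13 members were called in none of the 4 contrasts.

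For Cd3d the mWAT arrays read 11.88, 12.11 and 7.10 at 6°C and 11.82, 11.98 and 7.15 at 28°C, against 6.34, 6.46 and 6.33 in BAT at 6°C and 6.14, 5.98 and 6.56 in BAT at 28°C. At both temperatures the third array stood 4.67 or more below the other mWAT arrays, yet still above every BAT array. Cr2 read 10.32, 10.28 and 4.45 at 6°C and 10.33, 10.45 and 4.87 at 28°C in mWAT, where the low arrays were within or below the BAT range of 4.84 to 5.60. Cd8a and Cd8b1, coreceptor chains of cytotoxic T cells, were likewise at 6.08 and 6.39, and at 4.99 and 4.87, on those 2 arrays, against 5.86 to 6.56 and 4.16 to 5.41 in BAT.

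The replicate 3 arrays, singled out after their values were seen, lay below the other 4 mWAT arrays for all 29 members, as they did for 18.6% of all probe sets. The gap was at least 2 log2 units for 27 members, Gzma and Pax5 being the exceptions, and for 1.35% of all probe sets. They lay below every sWAT array for 28 members, as for 17.4% of all probe sets. Both lay above every BAT array for 16 members, as for 20.7% of all probe sets. Set against BAT, 7 of the 14 T cell genes were above every BAT array on both and 7 within or below the BAT range on both. Of the 9 B cell genes, 6 were above BAT on both and 3, Cr2, Fcer2a and Pax5, were not.

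The B cell genes that remained above BAT were Ms4a1 at 8.31 and 8.15, where no BAT array exceeded 6.21, Blk at 7.21 and 7.74, where the highest was 5.74, Spib at 7.75 and 7.79, where the highest was 6.41, and Cd79a, Cd79b and Cd22 by smaller margins. On the replicate 3 arrays the mean of the B cell genes exceeded that of the T cell genes by 0.52 at 6°C and 0.39 at 28°C. On the other 4 mWAT arrays the same difference ran between -0.12 and 0.10, on the sWAT arrays between -0.59 and -0.15, and on the BAT arrays between -0.35 and 0.15. Over the members this difference was thus larger on the 2 replicate 3 arrays than on any other, which was not tested. Of the lists of further marker genes, 7 of 18 B cell genes and 3 of 15 T cell genes were above every BAT array on both. Of all probe sets, 20.7% were. Over these further lists the B and T cell means were 6.77 and 5.42 on replicate 3 of mWAT at 6°C. They were 7.06 and 5.54 on replicate 3 of mWAT at 28°C, but 10.999 and 9.46 on replicate 2 at 28°C. On the further lists the excess of B over T cell genes was thus not largest on the replicate 3 arrays.

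**Figure D3:**
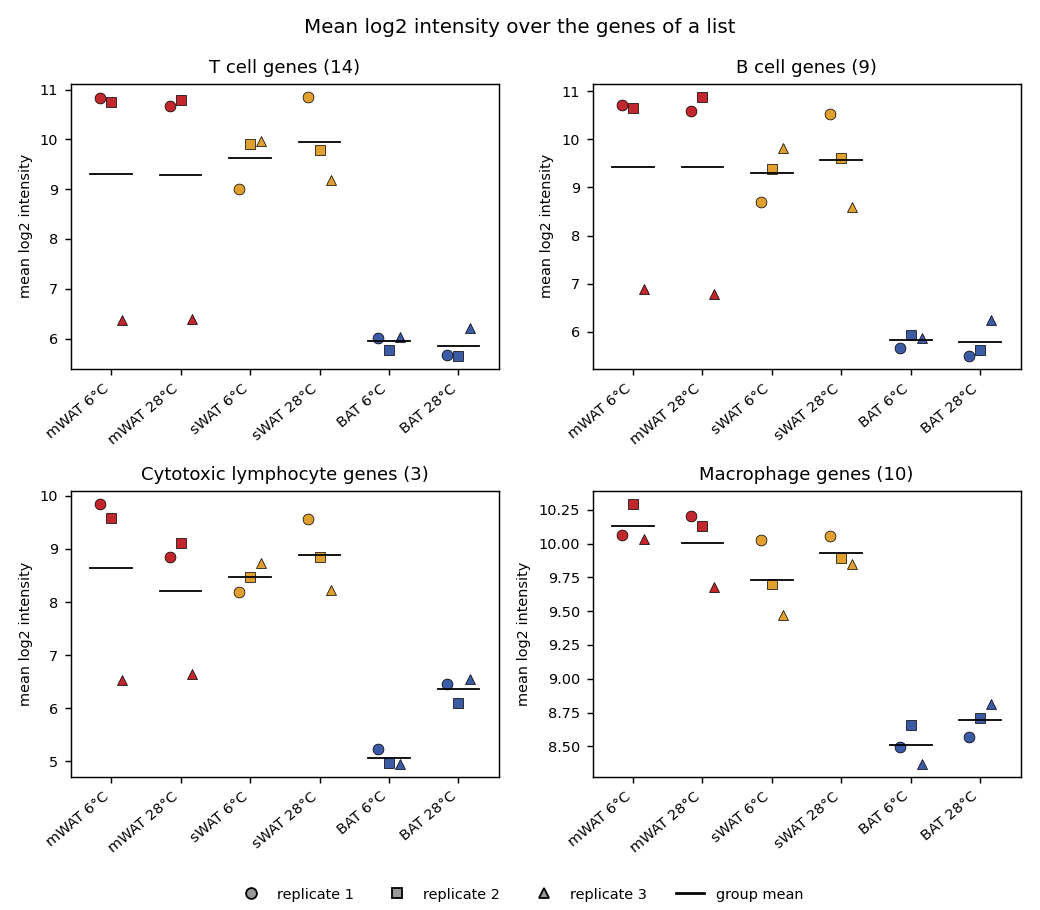
Mean log2 intensity (y axis) over the T cell, B cell and cytotoxic members and over 10 macrophage genes, by depot and temperature (x axis), with a point for each array and a line at the group mean. The mWAT triangles, replicate 3, sit near BAT for the lymphocyte genes but at 9.68 and 10.04 for the macrophage genes, close to the other mWAT arrays.

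Madcam1 differed from the rest of the list in sWAT. It was at 9.82, 9.59 and 5.27 in mWAT at 6°C and 9.34, 9.30 and 5.38 in mWAT at 28°C. In sWAT it was at 5.95, 6.71 and 6.04 at 6°C and 6.42, 6.53 and 6.05 at 28°C, and in BAT between 4.96 and 5.64. Thus 4 mWAT arrays were far above sWAT, and the replicate 3 arrays were below sWAT and within the BAT range. With all arrays, mWAT differed from sWAT by 1.99 ± 1.05 at 6°C (adjusted p = 0.269) and 1.67 ± 1.05 at 28°C (adjusted p = 0.425), and the gene was called in no contrast. Ltb followed the T cell genes, at 10.75, 10.53 and 5.95 in mWAT at 6°C and 10.20, 10.84 and 6.47 at 28°C, against 8.72 to 10.76 in sWAT and 5.80 to 6.39 in BAT. Samsn1, an adaptor of lymphocyte signalling, was at 6.85 and 6.80 on the replicate 3 arrays, above a BAT maximum of 6.49.

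Genes of lymph node architecture and of recirculating cells were read beside these. Glycam1, a mucin ligand of high endothelial venules, was at 13.40 to 13.52 on the 4 high mWAT arrays and 12.62 to 13.50 in sWAT. On the replicate 3 arrays it was at 5.75 and 6.56, within the BAT range of 5.46 to 9.35. The mammary epithelium list averaged 10.63 to 12.59 on the sWAT arrays, against 4.35 to 7.81 on the BAT arrays. Its part in the sWAT values of Glycam1 was not tested. Ccr7, which guides naive cells into nodes, was at 11.18 to 11.66 on the 4 arrays and at 4.92 and 5.20 on the replicate 3 arrays, no higher than the lowest of the BAT arrays, which ran up to 6.29. Lef1, a factor of naive T cells, was at 12.31 to 12.38 and at 6.82 and 7.02, below every BAT array. Ccr9, the receptor of gut-homing cells, was at 9.36 to 9.88 on the 4 arrays and 5.65 and 5.66 on the replicate 3 arrays, against 6.29 to 8.56 in sWAT. These 4 genes were chosen after their values were seen. All 6 measured genes on the list of recirculating naive lymphocytes were lower on both replicate 3 arrays than on the other 4. Among all probe sets 18.6% were. Of the 6, 5 were within or below the BAT range on both replicate 3 arrays.

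The list of stroma and high endothelial venule genes held smaller gaps than these. Its 15 genes as drawn up also included Bst1, Ch25h, Fcgr2b, Lyve1, Prox1 and Stab2. Of its 11 measured genes, 8 lay above every BAT array on both replicate 3 arrays, as did 20.7% of all probe sets. The other 3 were within or below the BAT range on both. Of the 10 macrophage genes, 9 also lay above every BAT array on both, and which cells carried these transcripts was not tested. The median gap to the other 4 mWAT arrays was 0.53 over the 11, where the median gap of the members was 3.73. On both replicate 3 arrays, 8 of the 11 were lower than on those 4, as were 18.6% of all probe sets. Chst4, a sulfotransferase of high endothelial venules, was at 8.71 and 9.02 there, above the 7.11 to 8.13 of the other mWAT arrays, and was higher in mWAT than in BAT at 28°C by 4.51 ± 0.46 (adjusted p = 2.86e-06). Cxcl13, the chemokine that draws B cells to follicles, was at 10.96 and 11.14, below 12.44 to 12.69 on the other 4 but above every BAT array, and differed from BAT by 3.58 ± 0.55 at 28°C. Of the 11 genes, 9 were called higher in mWAT than in BAT at 6°C (14.8% of all probe sets) and 8 at 28°C (11.4%). In sWAT against BAT, 6 were called higher at 6°C (10.3%) and 9 at 28°C (9.66%). Of the 8 measured plasma cell genes, 5 lay above every BAT array on both replicate 3 arrays, as did 20.7% of all probe sets. The other 3 were within or below the BAT range on both. Igha and Jchain, an immunoglobulin heavy chain and the chain joining secreted antibodies, were at 12.95 and 13.09 and at 11.66 and 11.76 on the replicate 3 arrays, above BAT maxima of 9.56 and 9.21. Prdm1, the transcription factor of plasma cells, was at 6.90 and 7.34, against 7.11 to 8.11 in BAT, and Tnfrsf17, a survival receptor of plasma cells, was at 6.71 and 6.41, against a BAT maximum of 6.73. These 4 were named after their values were seen.

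**Figure D4:**
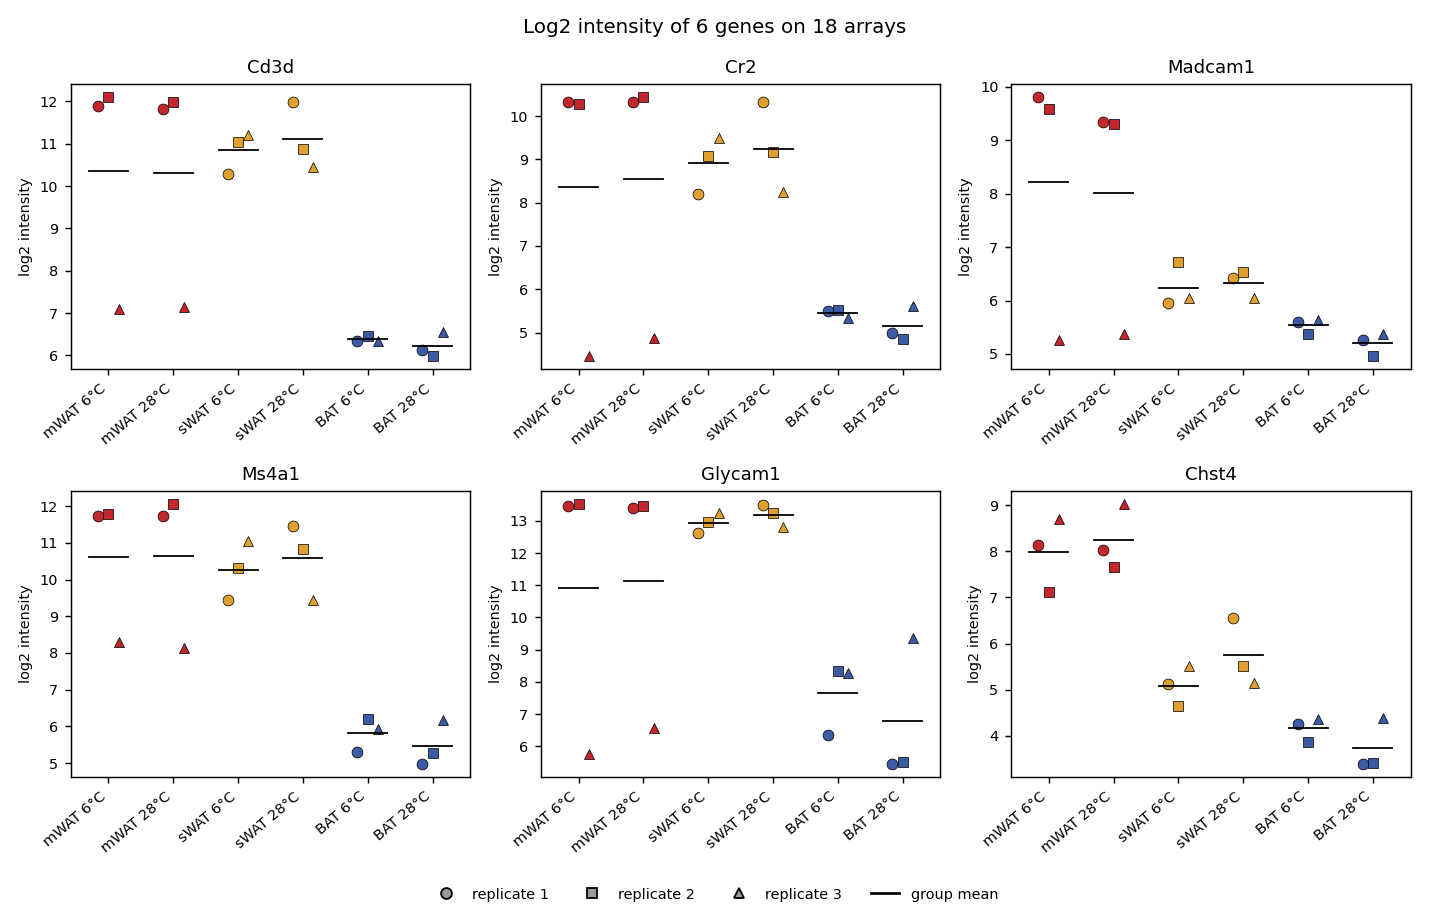
Log2 intensity (y axis) of 6 genes by depot and temperature (x axis), with a point for each array and a line at the group mean. Cd3d, Cr2, Madcam1 and Glycam1 drop to the level of BAT or near it on the replicate 3 arrays of mWAT (triangles), Ms4a1 drops to 8.31 and 8.15, and Chst4 is highest on these arrays.

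The lists of other cell types on the replicate 3 arrays were as follows. The mean of the adipocyte list was 12.76 and 12.67, against 12.31 to 12.81 on the other mWAT arrays, and that of the blood vessel list was 9.86 and 9.80, against 9.53 to 9.83. The mesothelial list was 11.55 and 11.46, against 10.07 to 10.88, and the neuronal list was 11.33 and 11.43, against 10.43 to 10.81. The macrophage list was 10.04 and 9.68, against 10.06 to 10.29, with 4 of its 10 genes lower on both arrays than on the other 4, and the list of genes shared by all leukocytes was 10.70 and 10.57, against 12.93 to 13.03, with 8 of 8 lower. The dendritic cell list was 6.70 and 6.59, against 8.43 to 8.85, with 6 of 6 genes lower. The list of proliferating cells was 8.03 and 7.60, against 9.62 to 10.07, with 7 of 7 lower. Of the further marker lists, 15 of 15 T cell genes and 18 of 18 B cell genes were lower on both arrays. So were 8 of 11 other natural killer and cytotoxic genes, 6 of 8 plasma cell genes and 5 of 8 germinal centre genes. Of the group 2 innate lymphoid and resident lymphocyte genes 2 of 5 were lower, and of the immature lymphocyte genes 2 of 6. Of all probe sets, 18.6% were lower on both arrays than on the other 4. The exocrine pancreas list was at 14.09 and 9.96 on 2 of the high mWAT arrays, replicate 2 at 6°C and replicate 1 at 28°C, and at 4.69 to 5.53 on the other 4 mWAT arrays. The part of these in the result was not tested. Over all probe sets the 2 replicate 3 arrays correlated with each other at r = 0.991, the other 4 mWAT arrays among themselves at 0.979 to 0.990, and the 2 with the 4 at 0.949 to 0.969.

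Leaving out both replicate 3 arrays, a choice made after their values were seen, raised the counts of calls. The median residual SD of the members fell to 0.56, against 1.44 with all arrays, and 27 members were called higher in sWAT than in BAT at 6°C (14.2% of all probe sets) and 28 at 28°C (13.9%). The sWAT and BAT values are the same in both fits, and only the shared estimate of the spread differs. In mWAT 28 were called at 6°C (18.2%) and 27 at 28°C (14.6%), with medians of 5.10 and 4.85; as the arrays left out were chosen for their low values, these counts describe the other 4 arrays, and the smaller spread behind the sWAT counts comes from the same choice. Pax5 alone was called in none of the 4 contrasts. Madcam1 was itself low on the arrays left out, so its differences between mWAT and sWAT in this fit, 3.47 at 6°C and 2.98 at 28°C, describe the other 4 arrays and are no test of the depots.

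Between mWAT and sWAT no member was called with all arrays, at 6°C, where 7.45% of all probe sets were, or at 28°C, where 5.84% were. At an unadjusted p of 0.05, 0 members passed at 6°C and 1 at 28°C. The 4 high mWAT arrays were above every sWAT array for 8 of 29 members, as for 7.93% of all probe sets: Zap70, Cd79a, Cd79b, Cd22, Ms4a1, Blk, Spib and Madcam1, of which 6 are B cell genes.

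With all arrays, no member was called between 6 and 28°C in any depot. In BAT, 0 of 29 members were called at 6°C against 28°C, where 5.28% of all probe sets were; in mWAT it was 0, where 0.00222% were. The median change of the members was 0.00 in BAT and 0.03 in mWAT. The differences between depots in the cold response also gave no call: 0 of 29 for sWAT against BAT (0.362% of all probe sets), for mWAT against BAT (0.582%) and for mWAT against sWAT (0%). The unadjusted p was under 0.05 for 0, 1 and 1 members in these 3 differences, and for 1 in BAT and 0 in mWAT.

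The cytotoxic genes were the members with the largest cold changes in BAT. Gzma, which encodes granzyme A, a protease of cytotoxic granules, was at 4.78, 5.18 and 5.27 in BAT at 6°C, against 6.87, 6.59 and 7.05 in BAT at 28°C. The groups did not overlap. The change was -1.76 ± 0.58 (adjusted p = 0.0605, limma), which did not pass the threshold. Klrd1, the CD94 chain of natural killer receptors, was at 4.95, 3.99 and 3.74 at 6°C, against 5.77, 5.66 and 5.78 at 28°C, again without overlap, and its change was -1.51 ± 0.78 (adjusted p = 0.238). Nkg7, a granule membrane protein, was at 5.97, 5.73 and 5.85 at 6°C, against 6.71, 6.04 and 6.80 at 28°C. The medians of the BAT arrays were 6.97 to 7.04. Klrd1 and Nkg7 on every BAT array, and Gzma at 6°C, read below them, and no detection calls were used. At 28°C Gzma also read below the array median on replicates 1 and 2. On replicate 3 it was at 7.05, where the median was 7.04.

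Of the 29 members, 3 were lower in BAT at 6°C with groups that did not overlap, as 17.9% of all probe sets were. These 3 were the cytotoxic members. Another 3, Cd6, Lat and Madcam1, were higher without overlap, as 18.6% of all probe sets were. Neither count out of 29 was above the share of all probe sets. Of the 11 measured genes on the list of other natural killer and cytotoxic genes, 6 did not overlap and were lower at 6°C. None was higher without overlap and none was called, while 4 of the 11 had a change above 0. The median change was -0.33. Tbx21, the factor T-bet, was at 6.02, 5.78 and 5.98 in BAT at 6°C, against 7.20, 7.46 and 8.07 at 28°C, a change of -1.65 ± 0.79 (adjusted p = 0.200). Klre1, a killer lectin-like receptor, was at 5.66, 5.38 and 4.36, against 6.25, 5.98 and 6.13, a change of -0.99 ± 0.27 (adjusted p = 0.0283). Tbx21 and Klre1 were named after their values were seen, and the 4 genes with a change above 0 are not named here. The T cell members had a median change of 0.11 and the B cell members of 0.00 in the same comparison. Other lists also moved between these arrays: the skeletal muscle list averaged 7.37, 10.28 and 8.35 in BAT at 6°C, against 9.09, 12.94 and 12.49 at 28°C, the exocrine pancreas list 6.44, 5.79 and 10.51 at 6°C, against 5.13 to 5.37 at 28°C, and the list shared by all leukocytes 9.16, 9.55 and 9.19 at 6°C, against 9.40 to 9.93 at 28°C. The part of these in the result was not tested.

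**Figure D5:**
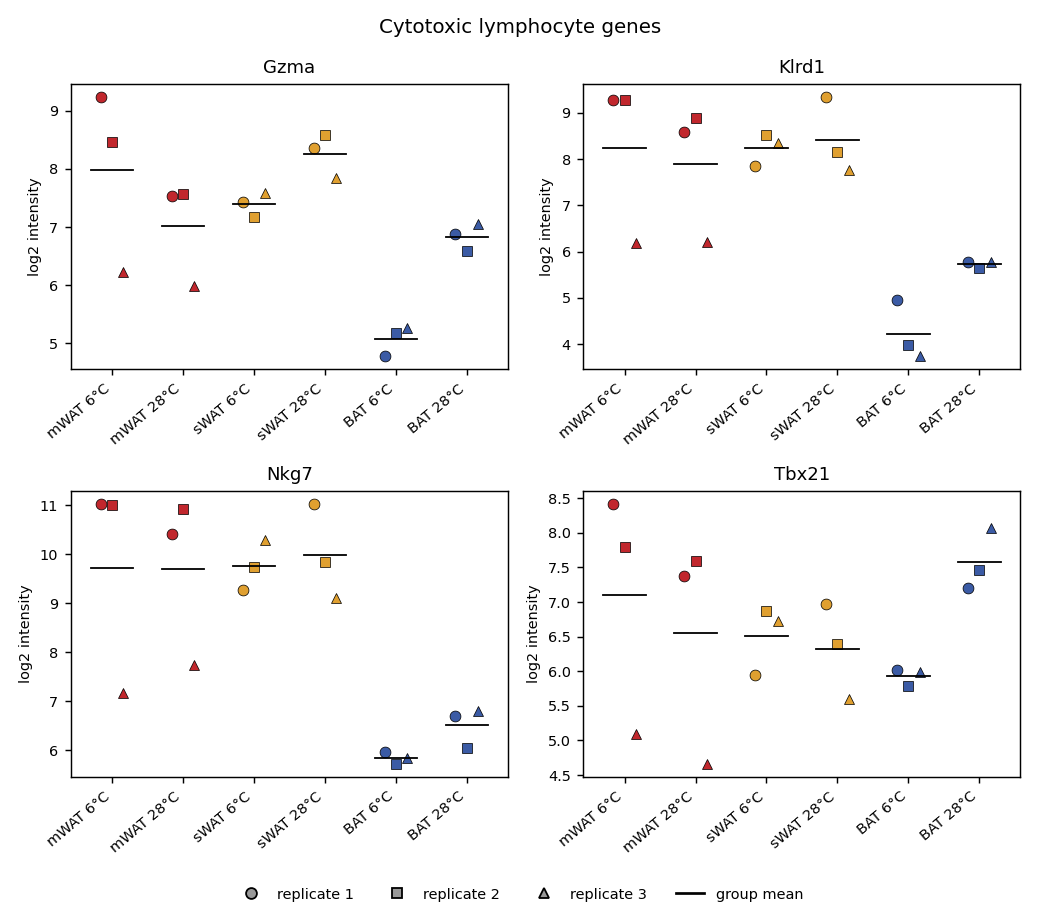
Log2 intensity (y axis) of Gzma, Klrd1, Nkg7 and Tbx21 by depot and temperature (x axis), with a point for each array and a line at the group mean. In BAT every array at 6°C lies below every array at 28°C for each gene, and Gzma in BAT at 6°C lies between 4.78 and 5.27.

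Between depots, no difference in the cold change of Gzma was called with all arrays. In mWAT it was at 9.24, 8.46 and 6.22 at 6°C, against 7.53, 7.56 and 5.98 at 28°C, a change of 0.95 ± 0.58 (adjusted p = 0.99998), and in sWAT it was at 7.44, 7.18 and 7.58 at 6°C, against 8.35, 8.59 and 7.85 at 28°C, a change of -0.86 ± 0.58 (adjusted p = 0.618). In sWAT these groups did not overlap, while in mWAT they did. The cold change in mWAT exceeded that in BAT by 2.71 ± 0.82 (adjusted p = 0.104), which did not pass the threshold. Without both replicate 3 arrays the difference was 3.07 ± 0.37 (adjusted p = 0.00144), and the BAT change itself, whose values are unaltered, had adjusted p = 3.65e-04; Gzma was also low on the arrays left out, so these values describe the arrays that remain.

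Set against BAT, Gzma was higher in mWAT than in BAT by 2.90 ± 0.58 at 6°C (adjusted p = 7.91e-04) and by 0.19 ± 0.58 at 28°C (adjusted p = 0.818). In sWAT the differences from BAT were 2.32 ± 0.58 at 6°C (adjusted p = 0.00579) and 1.42 ± 0.58 at 28°C (adjusted p = 0.0662). Klrd1 was called in both white depots against BAT at 6°C, by 4.02 ± 0.78 in mWAT and 4.01 ± 0.78 in sWAT, and in neither at 28°C. At 28°C it was still higher than in BAT, with adjusted p = 0.0144 in sWAT and 0.0378 in mWAT (limma). Its cold response was not called different from that of BAT in either white depot. These comparisons reuse the BAT arrays of that temperature, so they restate the BAT values above together with those of the white depots.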

How the data were processed

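Gene expression was measured in 18 samples. The authors extracted RNA, amplified it and hybridised it to Affymetrix arrays, then background-adjusted, summarised and normalised the values with Bioconductor; the algorithm is not given in the sources used here. The deposited values are intensities on a linear scale, for 45101 probe sets, and were log2 transformed. After 64 control probe sets were left out, 45037 were fitted in limma 3.58.1 under R 4.3.3, with 1 mean for each of 6 groups and 12 contrasts. P-values were adjusted by Benjamini-Hochberg over all probe sets, with a threshold of 0.01. The fit had 12 residual degrees of freedom. A probe set had to name 1 gene; the brightest stood for the gene. The number of arrays limits the precision, and no detection calls or depths were used.

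Groups follow the titles, because the tissue and temperature fields of the labels contradict them. All members were named; of other lists, counts and the called genes with the largest changes, and otherwise those with the widest range, with exceptions stated. The members and lists were chosen with earlier results of these data known. Members and their roles follow textbook knowledge. Promoter sequences came from RefSeq (GRCm38.p6).

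Alternatives were a threshold of 0.05, a fit on only the groups compared, quantile normalisation, median centring, a filter on dim probe sets, a variance trend with robust estimates, array weights by group, the mean of a gene's probe sets, and leaving out each array. Leaving out both mWAT arrays of replicate 3 was added after the data were seen.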

Additional observations from a re-analysis of the deposited data

How the results depend on the processing

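The number of members called depended on the estimate of the spread, which the 2 replicate 3 arrays of mWAT enlarge, and no called change reversed. The counts with all arrays and a threshold of 0.01 were 10 for sWAT against BAT at 6°C, 14 for sWAT against BAT at 28°C, 11 for mWAT against BAT at 6°C and 10 for mWAT against BAT at 28°C. In the same order they were 23, 25, 24 and 21 with a threshold of 0.05, 27, 28, 1 and 0 with only the groups compared, 20, 23, 13 and 15 with array weights by group, 6, 5, 9 and 3 with a variance trend and robust estimates, and 27, 28, 28 and 27 without both mWAT arrays of replicate 3. Median centring, quantile normalisation, the filter on dim probe sets and the mean of a gene's probe sets gave 9 to 13, 13 to 15, 10 to 13 and 7 to 10.

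Leaving out each array in turn gave 1 to 21, 1 to 25, 4 to 28 and 2 to 27 in that order. The highest counts came without replicate 3 of mWAT at 6°C, except for mWAT against BAT at 28°C, where they came without replicate 3 of mWAT at 28°C. The lowest came without sWAT replicate 2 or 3 or BAT replicate 3 at 6°C (1), without sWAT replicate 1 or BAT replicate 1 at 28°C (1), without mWAT replicate 1 or 2 at 6°C (4) and without mWAT replicate 1 or 2 or BAT replicate 1 or 2 at 28°C (2).

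Without both replicate 3 arrays, which were chosen for low values of the members, mWAT against sWAT called 2 members at 6°C, Madcam1 and Gzma, and 1 at 28°C, Madcam1. BAT at 6 against 28°C called 1, Gzma, in that fit and with only the groups compared, and 0 to 1 with an array left out, the call coming without replicate 3 of mWAT at 6°C. The difference in cold response between mWAT and BAT called 1, Gzma, without both arrays, and 0 to 1 with an array left out. Over the 27 alternatives the adjusted p of Gzma ran between 3.65e-04 and 0.159 in BAT and between 0.00144 and 0.214 for that difference. No paired analysis was possible because the labels give no replicate numbers and do not tie arrays to mice. With 3 arrays a group and this estimate of the spread, changes under about 2.28 log2 units, the median half-width of the 95% intervals, were hard to detect.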
